A study of Mus musculus with 8 samples.

Results

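The matrix metalloproteinase (MMP) loci comprised 10 mouse genes, Mmp2, Mmp3, Mmp8, Mmp9, Mmp10, Mmp11, Mmp12, Mmp13, Mmp14 and Mmp15, each taken as its annotated span plus 20 kb on either side (GENCODE annotation, build mm10). FAIRE-seq (formaldehyde-assisted isolation of regulatory elements, then sequencing) enriches DNA that is free of crosslinked protein, so a FAIRE peak marks a stretch of accessible chromatin. Merging the 8 deposited peak lists gave 37230 regions, and 23 of them lay in the MMP loci, with 65 of the 129466 peaks. The loci of 8 of the 10 genes held at least 1 peak in at least 1 library, and those of Mmp8 and Mmp12 held none. The Mmp cluster of chromosome 9, with 5 of the 10 genes, was also examined as 1 block.

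The cells were EpH4, a mouse mammary gland epithelial line, and EpRas, its derivative transformed with an active H-Ras. Each line was left untreated or received 1 ng/ml TGF-β3 (TGF-β below) for 8 days, which gave 4 groups of 2 replicate libraries, called untreated EpH4, TGF-β-treated EpH4, untreated EpRas and TGF-β-treated EpRas. EpH4 cells were grown in 10% and EpRas cells in 4% serum, so that H-Ras, serum and any other difference between these 2 lines cannot be told apart. Each line was 1 cell line, and a value for a line is a value for that culture. The comparisons asked which MMP loci were accessible, and whether the lines or the treatments differed there.

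MMPs are zinc-dependent proteases, secreted or held on the cell surface, that cut collagens, laminins, proteoglycans and other proteins around the cell. Most are made as inactive proforms, are activated by other proteases and are held in check by the tissue inhibitors of metalloproteinases (TIMPs). Genes of the family are known for being induced when epithelial cells become invasive, and the promoters of several carry sites for AP1 and for ETS factors close to the start site.

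The lists of peaks were of unequal length. They held 12462 and 13092 peaks in untreated EpH4 (replicates 1 and 2), 17927 and 10821 in TGF-β-treated EpH4, 17210 and 13784 in untreated EpRas and 27337 and 16833 in TGF-β-treated EpRas. Replicate 1 of TGF-β-treated EpRas alone held 47.9% of the 11751 regions that were called in 1 library only, and replicate 1 of TGF-β-treated EpH4 held 14.9%. The lists carry no read counts, so the depth of each library is unknown, and a site without a peak may be closed or may only have missed the peak caller's limit. Among promoters of epithelial marker genes, Krt14 had a peak in all 8 libraries, 6 of 8 markers had one in at least 1 library, and Epcam and Krt5 had none. The Cdh1 promoter, of the E-cadherin gene, was called in the 4 EpH4 libraries and in 0 EpRas libraries. Of 9 promoters of leukocyte, endothelial, fibroblast and adipocyte markers, 6 had no peak, while Cd68 was called in 3 libraries, Col1a1 in 2 and Pdgfra in 4.

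The sequences of 6 accessible regions and of 1 promoter carry most of what follows, and are given as 300 bp windows on the plus strand of GRCm38 (mm10). Capitals mark matches, on either strand, to 4 sets of letters: AP1 (TGAGTCA or TGACTCA), the PEA3 element (AGGAAG), ETS (CCGGAAA, or the same letters with A as the first base or G as the last) and RUNX (TGTGGTT). The PEA3 and ETS letters share GGAA but differ in the base before it, so that 1 core cannot match both. Mmp9 region 2 (chr2:164931221-164931520) is shown because it was called in every TGF-β-treated library and in no untreated one, and Mmp9 region 3 (chr2:164932662-164932961) because it was called in both libraries of TGF-β-treated EpH4 only. Mmp9 region 5 (chr2:164947559-164947858) lies at the Mmp9 start site and Mmp10 region 1 (chr9:7502100-7502399) at that of Mmp10. Mmp2 region 2 (chr8:92847431-92847730) was the only region called in all 8 libraries, and Mmp13 region 1 (chr9:7258511-7258810) was called in 7. The Mmp13 promoter (RefSeq, chr9:7272264-7272563, 250 bases before to 50 after the start site) is shown because it held matches to 3 of the 4 sets and no peak in any library.
Mmp9 region 2: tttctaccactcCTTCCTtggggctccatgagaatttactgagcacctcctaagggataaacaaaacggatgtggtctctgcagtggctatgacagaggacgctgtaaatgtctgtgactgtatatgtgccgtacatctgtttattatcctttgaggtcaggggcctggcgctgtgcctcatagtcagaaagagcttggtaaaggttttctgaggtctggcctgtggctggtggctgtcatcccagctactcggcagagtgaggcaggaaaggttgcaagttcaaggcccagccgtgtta
Mmp9 region 3: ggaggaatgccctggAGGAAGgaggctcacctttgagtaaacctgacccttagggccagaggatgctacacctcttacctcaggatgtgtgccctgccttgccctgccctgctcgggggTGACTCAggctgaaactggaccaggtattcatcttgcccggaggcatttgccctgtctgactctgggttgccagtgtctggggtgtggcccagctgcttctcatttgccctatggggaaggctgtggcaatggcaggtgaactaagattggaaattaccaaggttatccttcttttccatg
Mmp9 region 5: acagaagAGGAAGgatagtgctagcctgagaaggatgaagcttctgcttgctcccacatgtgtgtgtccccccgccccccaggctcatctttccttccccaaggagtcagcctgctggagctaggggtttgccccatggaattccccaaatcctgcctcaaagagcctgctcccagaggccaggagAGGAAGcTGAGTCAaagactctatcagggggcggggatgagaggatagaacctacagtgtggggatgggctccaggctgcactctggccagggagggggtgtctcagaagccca
Mmp2 region 2: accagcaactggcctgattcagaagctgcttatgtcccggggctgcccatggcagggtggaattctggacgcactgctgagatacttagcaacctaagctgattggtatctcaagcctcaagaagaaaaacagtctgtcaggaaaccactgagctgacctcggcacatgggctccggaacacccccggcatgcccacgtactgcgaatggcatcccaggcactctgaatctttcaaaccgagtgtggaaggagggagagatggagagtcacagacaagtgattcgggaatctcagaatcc
Mmp13 region 1: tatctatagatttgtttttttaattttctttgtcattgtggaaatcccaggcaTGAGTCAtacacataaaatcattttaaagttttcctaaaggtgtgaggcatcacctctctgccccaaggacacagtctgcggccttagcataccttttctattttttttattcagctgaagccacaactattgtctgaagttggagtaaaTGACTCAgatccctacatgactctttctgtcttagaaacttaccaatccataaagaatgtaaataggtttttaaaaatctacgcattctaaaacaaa
Mmp13 promoter: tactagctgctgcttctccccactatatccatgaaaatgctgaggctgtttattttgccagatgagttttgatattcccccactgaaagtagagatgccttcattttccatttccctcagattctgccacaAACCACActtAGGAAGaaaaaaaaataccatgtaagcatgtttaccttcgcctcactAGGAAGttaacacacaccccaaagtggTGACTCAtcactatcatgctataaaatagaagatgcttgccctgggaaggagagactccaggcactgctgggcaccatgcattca
Mmp10 region 1: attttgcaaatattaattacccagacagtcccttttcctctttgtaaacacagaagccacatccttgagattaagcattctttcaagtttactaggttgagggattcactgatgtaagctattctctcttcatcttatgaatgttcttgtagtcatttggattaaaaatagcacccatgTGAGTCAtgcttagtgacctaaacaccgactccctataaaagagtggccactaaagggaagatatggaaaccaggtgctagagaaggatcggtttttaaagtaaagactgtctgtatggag

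**Figure D1:**
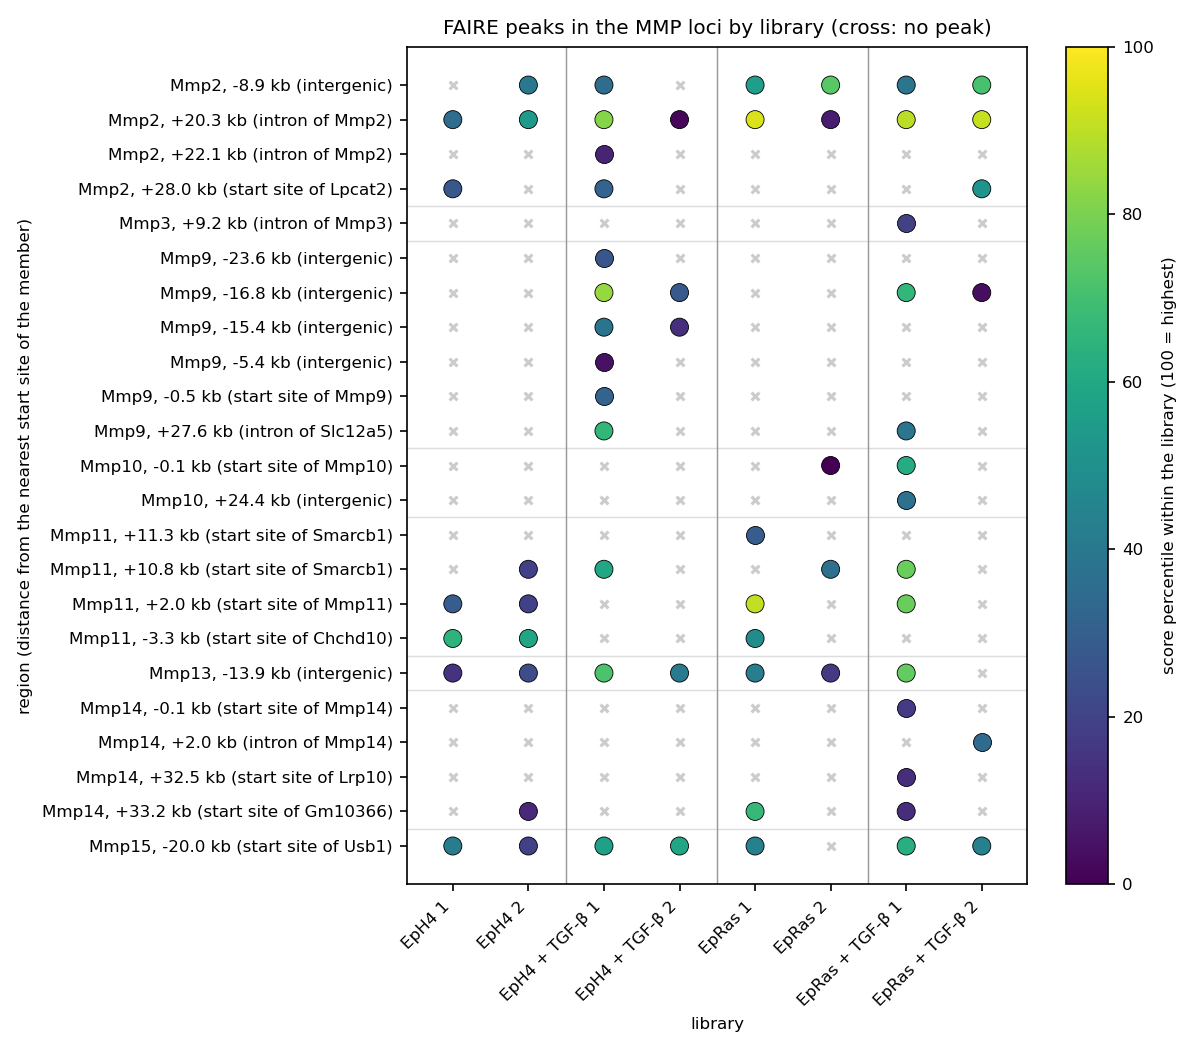
Calls of the 23 regions of the MMP loci (rows, with the distance from the start site of the member in kb and the annotation) in each of the 8 libraries (columns). A filled circle is a call, coloured by the percentile of its score within the library (100 is the highest score), and a cross is no peak. Mmp2 at +20.3 kb is filled in all 8 columns, Mmp9 at -16.8 kb only in the 4 TGF-β columns, and Mmp13 at -13.9 kb in 7 columns.

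Mmp9 encodes gelatinase B, a secreted protease that cuts denatured collagen and the type IV collagen of basement membranes. Its locus (gene at chr2:164940780-164955850, plus strand) was the only MMP locus in which the TGF-β-treated and untreated libraries did not overlap. It held 6 peaks in replicate 1 and 2 in replicate 2 of TGF-β-treated EpH4. TGF-β-treated EpRas had 2 and 1 peaks in replicates 1 and 2. The 4 untreated libraries, of both lines, had 0. The treated mean was 2.75 ± 2.22 peaks (SD, n = 4) against 0, with an exact permutation p = 0.0286, the smallest that 4 against 4 libraries allow. Adjusted by Benjamini-Hochberg over the 15756 protein-coding loci with a peak, this p was 1, and 0 loci passed in either contrast (69 had an unadjusted p under 0.05 for treatment and 759 for line). With 0.0286 as the smallest p, a locus could pass only if most loci reached that p. The adjustment could therefore not single out a locus, and the same limit holds for the adjusted p-values given below. As background, every treated library was above every untreated one in 0.394% of these loci, and every untreated above every treated one in 0.0444%. A peak in all 4 treated libraries and none in the untreated ones was found in 24 loci, or 0.152%.

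The 6 regions of the Mmp9 locus differed in how many treated libraries shared them. Region 2 (chr2:164931213-164931528, intergenic, 16.8 kb upstream of the start site) was called in all 4, as 0.32% of the 37230 regions were (treated only), while 0.0188% were called in all untreated libraries and no treated one. Its score percentiles within the lists, where 100 is the highest score, were 84.1 and 27.5 in TGF-β-treated EpH4 and 66.0 and 3.5 in TGF-β-treated EpRas. The call thus ranked high in both replicates 1, and in replicate 2 of TGF-β-treated EpRas it was among the lowest-scored peaks of the list. Region 3 (chr2:164932681-164932942, intergenic, 15.4 kb upstream) lay 1152 bp from region 2 and was called in both libraries of TGF-β-treated EpH4, at percentiles 38.4 and 13.9, and in no other. That pattern was shared by 0.86% of all regions. Region 5, 510 bp upstream of the start site, was called only in replicate 1 of TGF-β-treated EpH4 (percentile 31.7), as was region 4 (percentile 4.5), which lay 5.39 kb upstream of the start site of the basic transcript set and inside the annotated gene span. Region 1, 23.6 kb upstream, was also called in that library alone (percentile 26.3). Region 6, in an intron of the neighbouring Slc12a5, was called in replicate 1 of both treated groups (percentiles 66.0 and 38.7).

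The call at Mmp9 depended on the length of the lists and on the flank. With 10821 peaks per library, the length of the shortest list, TGF-β-treated EpH4 had 2 and 2 peaks, TGF-β-treated EpRas 1 and 0, and the untreated libraries still 0 (difference 1.25, exact permutation p = 0.143). With peaks at or above the median score of 15.51, replicate 1 of each treated group had 2 and all other libraries 0. Within the gene span, without the 20 kb on either side, only replicate 1 of TGF-β-treated EpH4 had peaks (2). In all of these settings the untreated libraries had 0 peaks, whereas with 50 kb on either side 3 of the 4 untreated libraries had 1. The TGF-β difference was 4.0 peaks in EpH4 and 1.5 in EpRas, and the difference between these was -2.5 (exact permutation of the line labels within treatments, p = 0.667). The smallest p that the 36 assignments of this test allow is 0.0556, so that it could not pass the threshold. Exchanging line labels also assumes no line difference in either treatment. The test therefore cannot decide whether the TGF-β differences differ, and both limits hold for Mmp13 and Mmp14 below.

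**Figure D2:**
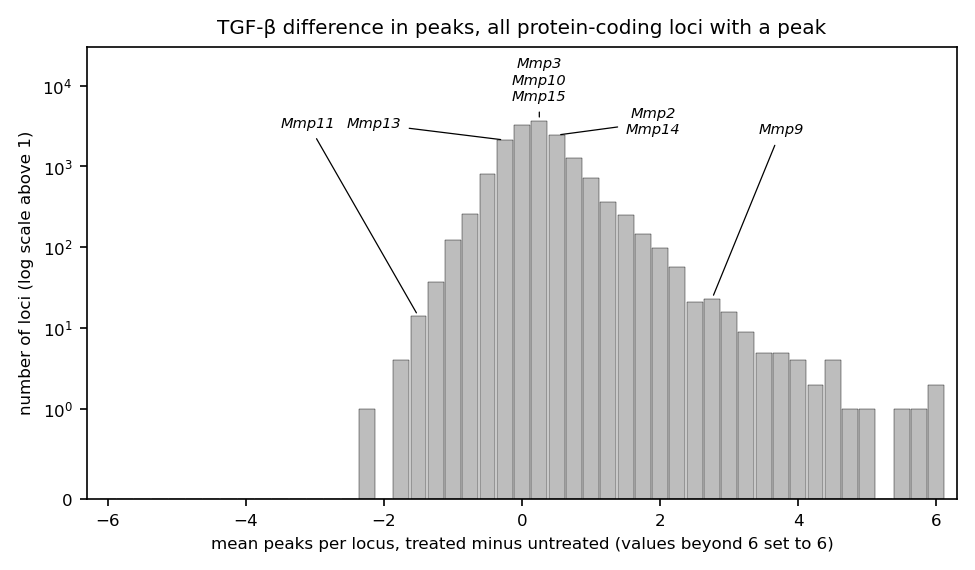
Number of protein-coding loci (log scale above 1) by their difference in mean peaks per locus, treated minus untreated, for the 15756 loci with a peak, with the MMP members marked. Mmp9 lies at 2.75 and Mmp11 at -1.5, and the other 6 members with a peak lie between -0.25 and 0.5.

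Mmp2 encodes gelatinase A, which like gelatinase B cuts basement membrane collagen, and whose proform is activated at the cell surface by the product of Mmp14. Its locus (gene at chr8:92827291-92853420, plus strand) was the only one of the 10 with a peak in every library, with 2 and 2 in untreated EpH4, 4 and 1 in TGF-β-treated EpH4, 2 and 2 in untreated EpRas, and 2 and 3 in TGF-β-treated EpRas. Both lines had a mean of 2.25, but with peaks at or above the median score the EpH4 libraries held 0, 0, 1 and 0 peaks and the EpRas libraries 2, 1, 2 and 3 (difference 1.75, exact permutation p = 0.0571). That limit left unequal lists, of 3612 to 9380 peaks in the EpH4 libraries and 6413 to 17335 in the EpRas libraries. With equal list lengths the line difference was 0.25. In the full lists the treated mean exceeded the untreated one by 0.5 peaks (exact permutation p = 0.714), with overlapping groups. Region 2 (chr8:92847374-92847788) lay in an intron of Mmp2, 20.3 kb downstream of its start site and 7.76 kb upstream of the start site of Lpcat2, a lipid-modifying enzyme gene. It was called in all 8 libraries, with percentiles of 35.1 and 53.7 in untreated EpH4, 82.0 and 1.8 in TGF-β-treated EpH4, 94.5 and 7.6 in untreated EpRas, and 89.7 and 91.0 in TGF-β-treated EpRas. Replicates of 1 group thus stood far apart in TGF-β-treated EpH4 and untreated EpRas, and the groups overlapped. The percentile was 70.7 ± 42.1 in EpRas and 43.1 ± 33.7 in EpH4 (SD, n = 4), a difference of 27.6 with an exact permutation p = 0.286 (0.649 adjusted over 4259 regions called in all libraries, of which 8.12% did not overlap between lines). Treated and untreated libraries differed by 18.4 (exact permutation p = 0.6, 0.997 adjusted), where 2.86% of regions did not overlap.

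Mmp2 region 1 (chr8:92818191-92818492, intergenic, 8.95 kb upstream of the start site) was called in 6 libraries. The percentiles were 55.7 and 74.1 in untreated EpRas and 38.7 and 71.1 in TGF-β-treated EpRas, against 39.9 in untreated EpH4 replicate 2, 35.1 in TGF-β-treated EpH4 replicate 1 and no call in the other two EpH4 libraries. When only peaks at or above the median score were kept, it was called in the 4 EpRas libraries and in 0 EpH4 libraries, but with equal list lengths in 3 EpRas libraries and 1 EpH4 library. In the full lists no MMP region had calls in every library of 1 line and in none of the other, where 1.98% of all regions were EpRas-only and 0.752% EpH4-only by this measure. Region 3 was called in 1 library, and region 4, at the start site of Lpcat2, in 3. No library had a peak within 2 kb of the Mmp2 start site.

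The Mmp cluster of chromosome 9 held few peaks in any single library but 1. From the first to the last of its 10 Mmp genes, plus 20 kb on either side (chr9:7252514-7719585, 467 kb), the block held 7 regions and 17 peaks. Windows of the same length tiled along the genome held a median of 4 regions (quartiles 1 to 10, 5630 windows), and 65.8% held as few as the block or fewer. The block had 2 and 1 peaks in untreated EpH4, 2 and 2 in TGF-β-treated EpH4, 1 and 2 in untreated EpRas, and 7 and 0 in TGF-β-treated EpRas. The highest and the lowest value were thus the replicates of 1 group, and the 7 came from the longest list. EpRas had 2.5 ± 3.11 and EpH4 1.75 ± 0.5 peaks (SD, n = 4, exact permutation p = 0.971), treated libraries 2.75 ± 2.99 and untreated ones 1.5 ± 0.577 (exact permutation p = 0.743). Without replicate 1 of TGF-β-treated EpRas, the differences became -0.75 and -0.167. Among windows with a peak, 9.96% did not overlap between lines and 0.987% between treatments. Peaks of chromosome 9 made up 5.21 to 5.73% of the lists in EpH4 and 4.24 to 4.75% in EpRas, the opposite order to that of the mean peak counts of the block.

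Within the block, Mmp13 was the gene with a steadily called region. Mmp13 encodes collagenase 3, which cuts fibrillar collagens. Its locus (gene at chr9:7272514-7283331, plus strand) held exactly 1 peak in each of the 4 EpH4 libraries, in both untreated EpRas libraries and in replicate 1 of TGF-β-treated EpRas, and 0 in replicate 2. Region 1 (chr9:7258486-7258835, intergenic) lay 13.9 kb upstream of the start site. Its percentiles were 14.2 and 22.7 in untreated EpH4, 71.6 and 41.0 in TGF-β-treated EpH4, 41.9 and 17.1 in untreated EpRas, and 75.9 in replicate 1 of TGF-β-treated EpRas. The highest 2 of these values were those of replicate 1 of each treated group, and the ranks come from lists of unequal length. The call was missing in 1 treated EpRas library, so that the percentile had no test. The number of peaks differed between treatments by -0.25 (exact permutation p = 1), and the TGF-β differences of the lines by -0.5 (exact permutation within treatments, p = 1). With equal list lengths the region was called in 6 libraries, and above the median score in 2, replicate 1 of each treated group, which had the longest list of their lines. No library had a peak within 2 kb of the Mmp13 start site.

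Mmp10 and Mmp3 encode stromelysins, which cut many matrix proteins and activate other proMMPs. At the Mmp10 start site (gene at chr9:7502352-7510240, plus strand), region 1 (chr9:7502101-7502398) was called in replicate 2 of untreated EpRas at percentile 0.28, close to the lower end of that list, and in replicate 1 of TGF-β-treated EpRas at percentile 61.6. None of the 4 EpH4 libraries had a peak at the Mmp10 locus, and the counts in EpRas were 0 and 1 untreated and 2 and 0 treated, which overlapped with EpH4 (difference 0.75, exact permutation p = 0.429). The second Mmp10 peak, region 2, lay 24.4 kb downstream and was called in replicate 1 of TGF-β-treated EpRas at percentile 37.3. Mmp3 (gene at chr9:7445822-7455975, plus strand) had 1 peak in that same library (percentile 19.5), in an intron 9.20 kb downstream of its start site, and 0 in the other 7. Mmp8, the collagenase of neutrophils (gene at chr9:7558456-7568485), and Mmp12, the elastase of macrophages (gene at chr9:7344381-7369499), had 0 peaks in all 8 libraries, as did 28.2% of the 21951 protein-coding loci.

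**Figure D3:**
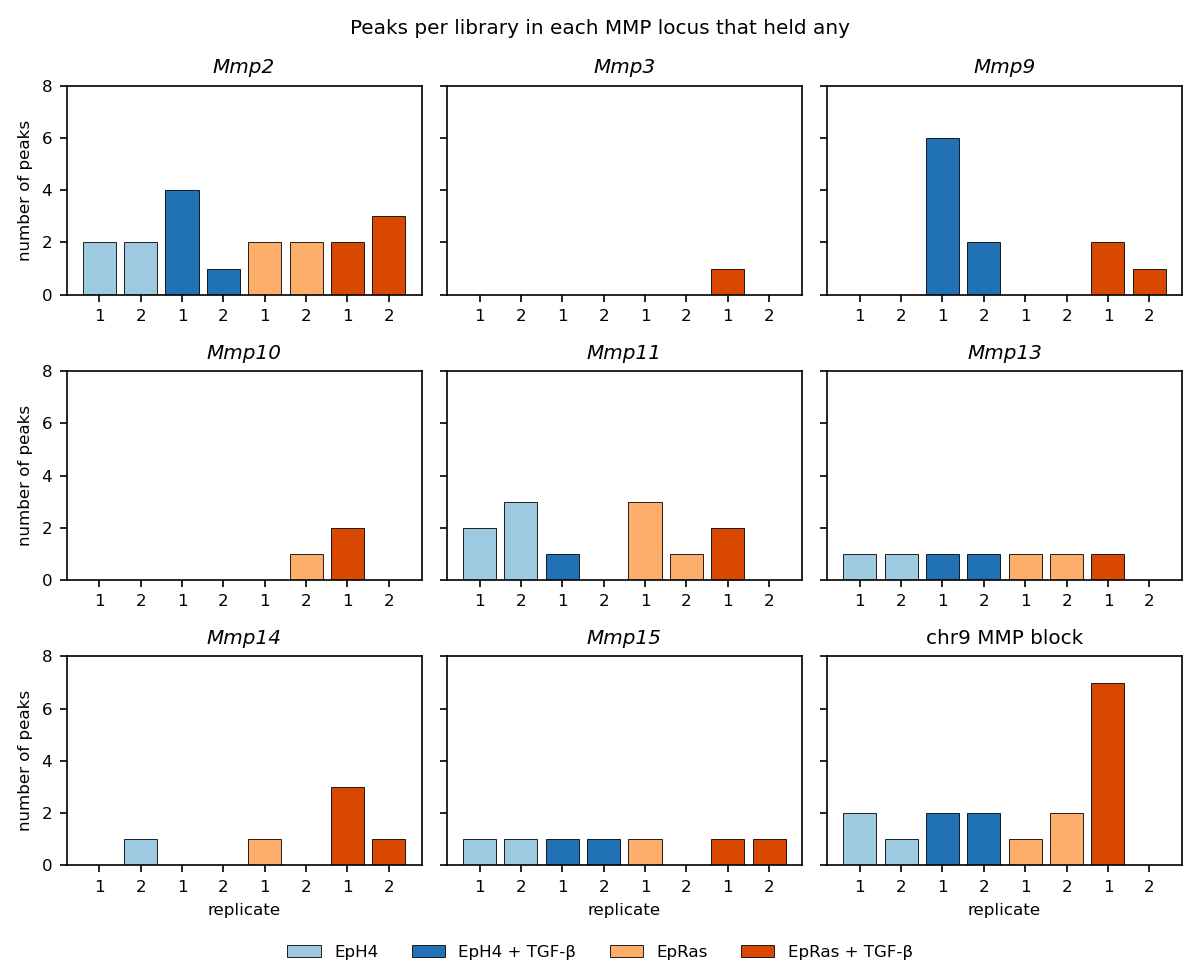
Number of peaks (bars, vertical axis from 0) in each of the 8 libraries for the 8 MMP loci with a peak and for the chromosome 9 block, by line and treatment, with the replicate number on the horizontal axis. Mmp9 bars stand only in the TGF-β-treated libraries, at 6, 2, 2 and 1, and the block bar of TGF-β-treated EpRas replicate 1 stands at 7.

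Mmp11 encodes stromelysin 3, a secreted protease that furin activates inside the cell. Its locus (gene at chr10:75923222-75936496, minus strand) had the lowest treated minus untreated value of the 10, with 2 and 3 in untreated EpH4 and 3 and 1 in untreated EpRas against 1 and 0 in TGF-β-treated EpH4 and 2 and 0 in TGF-β-treated EpRas. The groups overlapped, and the difference of -1.5 peaks had an exact permutation p = 0.143. Region 3 (chr10:75930325-75930669), 1.98 kb downstream of the nearest start site of Mmp11, was called in both untreated EpH4 libraries (percentiles 29.1 and 18.9), in replicate 1 of untreated EpRas (90.6) and in replicate 1 of TGF-β-treated EpRas (77.2). Region 4 (chr10:75935605-75935925) lay at the start site of Chchd10, a gene for a mitochondrial protein. It was called in both untreated EpH4 libraries (64.7 and 58.8) and replicate 1 of untreated EpRas (48.3) and in 0 treated libraries. It missed the count of untreated-only regions by replicate 2 of untreated EpRas. The other two regions lay at the start site of Smarcb1, a chromatin remodeller subunit gene, so that 3 of the 4 Mmp11 regions were at start sites of neighbours. Mmp11 peaks were thus counted in a locus that holds other promoters.

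The membrane-type genes had few peaks of their own. Mmp14 encodes a cell-surface protease that cuts collagen and activates the Mmp2 proform (gene at chr14:54431612-54445364, plus strand). Its locus had 0 and 1 peaks in untreated EpH4, 0 and 0 in TGF-β-treated EpH4, 1 and 0 in untreated EpRas, and 3 and 1 in TGF-β-treated EpRas. The highest value was that of replicate 1 of TGF-β-treated EpRas, and the lines and treatments overlapped (EpRas minus EpH4 1.0, exact permutation p = 0.371). The TGF-β differences of the lines differed by 2.0 (exact permutation within treatments, p = 0.389, with the limits given for Mmp9). Region 1 (chr14:54431406-54431638), 90 bp upstream of the Mmp14 start site, was called in replicate 1 of TGF-β-treated EpRas only (percentile 17.4), and region 2 (chr14:54433564-54433783), in an intron 2.04 kb downstream, in replicate 2 of the same group only (34.5). Each of these 2 regions was thus called in 1 library only, and only region 1 lay within 2 kb of the Mmp14 start site. The other 2 regions of the locus lay at the start sites of Lrp10 and Gm10366. Mmp15 encodes another membrane-type MMP (gene at chr8:95352268-95375080, plus strand), and its only region, at the start site of Usb1 20.0 kb upstream (chr8:95332118-95332439), straddled the outer edge of the locus. It was called in 7 libraries, at percentiles from 18.9 to 62.7, and not in replicate 2 of untreated EpRas.

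**Figure D4:**
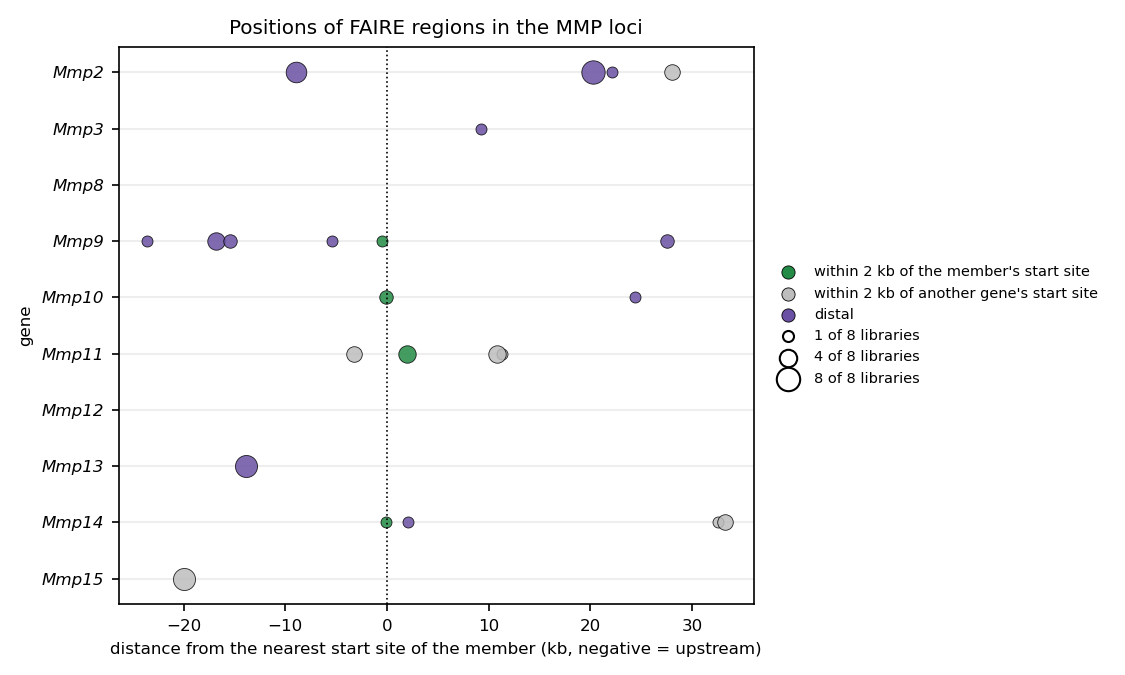
Position of the 23 regions as distance from the nearest start site of the member (kb, negative upstream). Point size shows how many of the 8 libraries called the region, and colour whether it lay within 2 kb of the member's start site (4 regions), of another gene's start site (7) or distal (12).

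Over the 10 genes, 4 regions lay within 2 kb of a member's own start site, 7 at other genes' start sites and 12 were distal. By the basic transcript set 5 of the distal regions were in introns and 7 intergenic. The 7 include Mmp9 region 4, which lay inside the annotated gene span. A peak centred within 2 kb of the own start site was found in at least 1 library for Mmp9, Mmp10, Mmp11 and Mmp14, 4 of 10 genes, and in all 8 libraries for none. Of all protein-coding genes, 42.5% had such a peak in at least 1 library and 10.6% in all 8. The share of regions called in 1 library only was 43.5% (10 of 23) against 31.6% of all regions, and 4.35% against 11.4% were called in all 8. Of those 10 regions, 4 came from replicate 1 of TGF-β-treated EpRas and 4 from replicate 1 of TGF-β-treated EpH4, the longest lists of their lines. Their median percentile was 22.9 against 21.8 for all one-library regions. The 65 calls ranged from percentile 0.28 to 94.5 with a median of 38.7, and 6 of them lay under percentile 10 of their lists against 3 above percentile 90. Per 10000 peaks, the libraries held between 3.56 and 7.25 MMP peaks. In the line comparison 0 of the 8 loci with a peak were called in either direction, where every EpRas library was above every EpH4 library in 4.27% of all loci with a peak and the reverse held in 0.552%.

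The other genes of the system comprised 13 other MMPs, 5 inhibitors (the 4 TIMPs and Reck, a membrane-anchored inhibitor) and 5 genes of activation and induction (Plau, Plaur, Plat, Furin and Bsg). Of these 23 loci 20 held a peak, against 71.8% of all protein-coding loci. The 23 include Mmp1a, which is annotated as a polymorphic pseudogene. Mmp1a, Mmp7 and Mmp20 each held 1 peak, in replicate 1 of TGF-β-treated EpRas only. That of Mmp1a was Mmp3 region 1, and that of Mmp7 was the same as that of Mmp20. In 1 locus every EpRas library was above every EpH4 library, as in 4.27% of all loci with a peak, and 0 differed without overlap in the other direction (0.552% of all loci with a peak). Between treatments 0 differed without overlap, where treated libraries were above in 0.394% of all loci with a peak and untreated ones in 0.0444%. The 1 locus was that of Mmp28, which encodes epilysin, an MMP of epithelia. It held 2, 1, 2 and 0 peaks in the EpH4 libraries and 5, 4, 4 and 4 in the EpRas libraries (difference 3, exact permutation p = 0.0286, 0.593 adjusted over all loci). These 22 peaks lay in 6 regions, and no library had a peak within 2 kb of the Mmp28 start site. The lists were of unequal length. Replicate 1 of untreated EpH4 had 2 of its 12462 peaks there, and replicate 1 of TGF-β-treated EpRas 4 of its 27337. Relative to list length the lines thus overlapped, and Mmp28 was not recounted with lists of equal length. The promoters of 6 of the 23 genes had a peak in at least 1 library, against 42.5% of all protein-coding genes. These were 0 of the 13 other MMPs, 2 of the 5 inhibitors and 4 of the 5 genes of activation and induction. The promoters of 0 of the 23 had a peak in all 8 libraries, against 10.6%.

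The letters in the 300 bp windows were compared with those of 37228 regions of the series. AP1 letters were in 9 of the 23 MMP regions (39.1%) and in 34.7% of all regions. The PEA3 letters were in 12 (52.2%) against 37.6%, the ETS letters in 6 (26.1%) against 12.3%, and the RUNX letters in 2 (8.70%) against 11.5%. Promoter regions, those within 2 kb of any start site, made up 47.8% of the MMP regions and 31.7% of all regions, and the letters differ between the classes. Among the 12 distal MMP regions, AP1 letters were in 41.7% against 44.2% of all distal regions, PEA3 letters in 58.3% against 39.1%, ETS letters in 16.7% against 6.16% and RUNX letters in 16.7% against 14.1%. Among the 11 promoter regions, AP1 letters were in 36.4% against 14.3% of all promoter regions, PEA3 letters in 45.5% against 34.5%, ETS letters in 36.4% against 25.5% and RUNX letters in 0 against 5.96%. The promoter regions with ETS letters lay at the start sites of other genes (Lpcat2, Lrp10, Gm10366 and Usb1). No region at a member's own start site held ETS letters. With 11 and 12 regions, 1 region moves these shares by several percentage points. Among the regions with sequences given, Mmp13 region 1 held AP1 letters at 2 places whose first bases lay 150 bp apart (from 7258564 and from 7258714), and 6.19% of all regions held 2 or more AP1 matches. Mmp9 region 5 held PEA3 letters at 2 places, the second with 1 base between it and AP1 letters, and Mmp9 region 3 held 1 match of each. Mmp9 region 2 held the PEA3 letters only, and Mmp2 region 2 none of the 4 sets. A match describes the letters and is not evidence of binding.

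RefSeq promoter windows were found for 8 of the 10 genes, 9 windows in all, with no entry for Mmp2 and Mmp9. AP1 letters were in 4 of the 9 windows (Mmp13, Mmp3, Mmp10 and 1 of the 2 of Mmp12), and in 5.20% of the 32851 promoter windows of the table. In these 4 windows the first base of the match lay between 35 and 63 bp upstream of the start site, 35 in Mmp13, 44 in Mmp12, 46 in Mmp3 and 63 in Mmp10. The PEA3 letters were in 5 windows (Mmp13, Mmp12, Mmp3, Mmp8 and Mmp14) against 35.4%. The ETS letters were in 0 windows against 14.9%, and the RUNX letters in 1 (Mmp13) against 5.27%. The Mmp13 promoter held, in order toward the start site, RUNX letters at 119 bp, PEA3 letters at 109 and 62 bp and AP1 letters at 35 bp upstream. Of the 4 genes with AP1 letters next to the start site, Mmp10 had a peak there in 2 libraries, and Mmp13, Mmp12 and Mmp3 in none.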

How the data were processed

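FAIRE-seq had been run on 8 libraries, 2 replicates in each of 4 groups, grouped by their labels. The study's methods and the submitters' processing notes state that the authors sequenced on an Ion Proton, used Bowtie2 to map reads to mm10 and MACS2 (version 2.0.9) to call peaks, and 1 list per library was deposited without pooling. The deposited lists gave for each peak a position, a name and a score from the authors' peak caller. What the score measures was not stated, so it served only to rank peaks within a library, and no depth or interval could be given.

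Peaks that overlapped by at least 1 bp were merged into regions. A locus was the gene span plus 20 kb on either side (GENCODE vM21 basic set), and 0 peaks reached beyond the end of a chromosome of GRCm38. Promoter peaks had their midpoint within 2 kb of any of 77198 annotated start sites. Counts were compared by two-sided exact permutation over the 70 assignments of 4 against 4 libraries. These p-values were adjusted by Benjamini-Hochberg over all 15756 loci with a peak. The difference of the TGF-β differences was compared over the 36 assignments of line labels within treatments. The smallest p of that comparison is 0.0556, so that it could not pass the threshold. A locus was called when every library of one group was above every library of the other. Computations used Python 3.11.15, numpy 2.4.6, pandas 2.3.3, scipy 1.17.1 and pysam 0.24.0, and the counting and testing steps were checked on simulated data.

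The member genes, gene lists and tests were chosen with earlier results of these data known. All 10 members were named. Regions named were the one called in most libraries, the one at the own start site, and those that separated groups or were called in both libraries of a single group, and other regions were given in brief. Genes of the wider system were named where groups did not overlap, and 1 gene of the list as first drawn up is not reported here. Alternatives were equal list lengths, a score limit, flanks of 0 and 50 kb, peak midpoints, peaks per 10000, permutation within replicate numbers or within the other factor, and leaving out each library.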

Additional observations from a re-analysis of the deposited data

Results flagged for a closer look

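Libraries that stood apart from the other 3 of their line or treatment (by a gap test with 4 values, which chance meets in about 1 in 20 groups) were found in 13 of 48 groups checked. Most of these groups hold small whole numbers, where 3 equal values and 1 other always meet the test, so that the share is not comparable with 1 in 20. The Mmp2 locus had 3 peaks in 1 EpRas library and 2 in the others. The Mmp3 locus had 1 peak in 1 library that was counted among both the EpRas and the treated libraries, and 0 in the others. Mmp10 had 1 peak in 1 untreated library and 2 in 1 treated library, against 0. At Mmp13 1 library, both among the EpRas and the treated libraries, had 0 peaks against 1, and at Mmp15 1 library, both among the EpRas and the untreated libraries, had 0 against 1. Mmp14 had 1 peak in 1 EpH4 library against 0, and the chromosome 9 block 1 in 1 EpH4 library against 2. The score percentile of Mmp2 region 2 was 7.57 in replicate 2 of untreated EpRas and 1.75 in replicate 2 of TGF-β-treated EpH4, far below the other libraries of EpRas and of the treated cells.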

How the results depend on the processing

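Over 27 results and the alternatives tried for each, 379 of 415 recomputed values stayed on their side of the threshold with no reversal of sign (for counts, within 1.5 times). They include 32 values of the line differences of Mmp2 and Mmp11, which were 0 as reported and differed from 0 in 25, by up to 1.75 peaks for Mmp2 with higher-scored peaks. Some of the 379 could not have changed. Permutation within replicate numbers or within the other factor kept each difference, and its p could not pass the threshold. The flank did not enter the percentile of Mmp2 region 2, and the tests of the differences of TGF-β differences could not pass in any setting. The number of MMP loci that did not overlap between treatments was 0 instead of 1 with lists of equal length, with higher-scored peaks, and with flanks of 0 kb or 50 kb, where the Mmp9 difference was 1.25, 1, 0.5 and 2.5 peaks (exact permutation p = 0.143, 0.429, 1 and 0.114). It stayed at 1 when any library was left out, with Mmp9 differences of 1.67 to 3.33. The number of regions that separated the treatments was 0 with lists of equal length, higher-scored peaks or a flank of 0 kb, and 1 to 2 without 1 library. The 2, reached without replicate 2 of untreated EpRas, added Mmp11 region 4. The number that separated the lines was 1 instead of 0 with higher-scored peaks (Mmp2 region 1).

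The line difference of the chromosome 9 block was -0.75 with lists of equal length, -0.185 per 10000 peaks and -0.75 to 1.58 without 1 library, and its treatment difference -0.167 to 2.17 without 1 library. Treated minus untreated values also changed sign with lists of equal length at Mmp2 (-0.25) and Mmp14 (-0.25), per 10000 peaks at Mmp2 (-0.0191), with higher-scored peaks at Mmp11 (0.25), Mmp13 (0.5) and Mmp14 (-0.25), with a 50 kb flank at Mmp13 (0.5) and with peak midpoints at Mmp15 (-0.25). Without replicate 1 of TGF-β-treated EpRas they were -0.25 at Mmp10 (up to 0.5 without another library) and -0.167 at Mmp14 (up to 0.833). The Mmp14 difference of TGF-β differences was -0.5 with lists of equal length or higher-scored peaks, and the Mmp9 line difference 0.0833 without replicate 1 of TGF-β-treated EpH4 and -1.92 at the other end. The cause of these changes was not tested. None of the differences in this paragraph had passed the threshold in the full lists. The percentile of Mmp2 region 2 had no value with equal lists, where it was no longer called in all libraries.

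With replicate number as a block, the Mmp9 difference of 2.75 had an exact permutation p = 0.0556, the smallest that its 36 assignments allow, and the same value came from permutation within lines, so that neither test could pass. The numbers share no stated origin, and the correlations of the replicates' deviations between groups ran from -0.0647 to 0.175. Without 1 untreated library p was 0.0571. The lists hold no read counts, so the calls that depth limits cannot be listed.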
